A study of Gallus gallus with 77 samples.

Results

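The RNA of unlesioned sensory epithelium from the chick cochlea was examined on its own, without reference to injury. On each of 77 two-colour arrays, one dye channel held RNA from epithelium hit by a laser microbeam and the other held RNA from unlesioned control cultures, so 77 of the 154 channels carried control RNA and are described here. Each sample title has a dye digit, 5 or 3, directly after the replicate number in brackets and a hyphen. The control channel was the Cy3 image where this digit is 5 and the Cy5 image where it is 3. The names of the scanned images gave the same dye on all 77 arrays. The cultures were pieces of cochlear epithelium from young White Leghorn chicks, freed with thermolysin, grown for days on a fibronectin substrate, and pooled from several specimens for each biological sample. The control cultures, which were not lasered, were collected beside lasered cultures at 30 min, 1 hr, 2 hr and 3 hr, with 25, 17, 15 and 20 arrays. There were 2 biological replicates at each time, hence 8 in all, and control RNA was in Cy5 on 38 arrays and in Cy3 on 39. RNA was amplified before labelling, so a level refers to amplified RNA. The labels do not say that the replicates came from separate animals, and p-values therefore measure the spread between these pooled samples.

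The cochlear sensory epithelium holds hair cells, which turn sound into electrical signals, and the supporting cells around them. In birds, supporting cells can divide or change directly into hair cells after damage, and the undamaged epithelium is the state from which that response starts. The control cultures were isolated pieces grown for days, so their levels need not be those of the epithelium in the animal. Transcription factors such as ATOH1, POU4F3 and GFI1 direct hair cell formation, whereas SOX2, PROX1 and the HES, HEY and ID genes are associated with supporting and progenitor cells. The array carried probes for 1507 genes, most of them human transcription factors, and 27 control probes, named CE or MT with a number or ending in mm and a digit. The study's methods describe its control oligonucleotides as lacking a human or chicken homolog, and whether that covers the mm probes is not given in the sources used here. Genes had duplicate spots.

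For each control channel the mean signal minus mean local background of the duplicate spots was averaged, and the 1507 genes were placed on a scale from 0 (dimmest) to 100 (brightest). These percentiles were averaged within each dye, then over both dyes, and then over the 8 replicates. A percentile orders probe signals. Because the probes were designed to human genes and each binds with its own strength, the order of probes is not an order of transcript numbers, and this limit holds for every level given below. In a bulk sample, fewer cells of a type and less RNA per cell cannot be told apart.

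The control channels differed widely in brightness. The median spot signal ranged between 483 and 5406 intensity units per channel (median 1639), and the median local background between 49.5 and 1374. The share of genes at or below background had a median of 0.863% per channel and reached 17.0%. The order of genes was shared nevertheless. Across the 1507 genes, which are not independent replicates, Pearson's r between pairs of replicates lay between 0.710 and 0.939, with 30 min replicate 2 and 2 hr replicate 2 the least like the others (median r 0.784 and 0.786). The SD of the gene means was 21.6 points, against a median SD over replicates of 8.86 points for one gene, and duplicate spots of a gene differed by a median of 7.26 points.

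The control probes were not at the bottom of the scale. Their mean percentiles ranged between 20.4 (CE1mm1) and 68.7 (CE4), with a median of 36.1, and 4 of the 27 lay above the median gene at 48.3. CE4 had 59.1 at the lowest and 90.2 at the highest over the 8 replicates. Relative to the median control probe of each replicate, 876 of 1507 genes were higher (58.1%), 242 were lower (16.1%) and 389 were neither (25.8%) by limma with a Benjamini-Hochberg adjusted p under 0.05. Only 78 genes (5.18%) lay above every control probe in all 8 replicates, and 130 (8.63%) lay below the median control probe in all 8. With the highest control probe of each replicate as the reference, 130 genes were called higher. The number of genes above background thus depended on which control probe was taken as background.

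**Figure D1:**
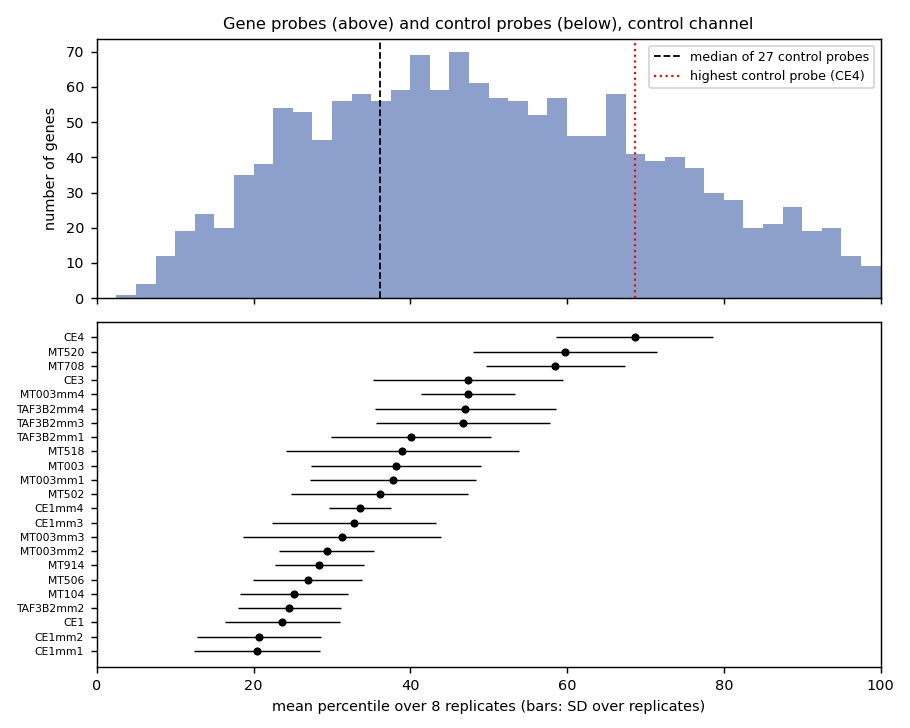
The upper panel shows how many of the 1507 genes had each mean percentile in the control channel (axis 0 to 100), and the lower panel shows the mean percentile of 23 of the 27 control probes with the SD over 8 replicates. The control probes spread between 20.4 and 68.7 and overlap the bulk of the genes.

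Some control probes carry the name of another probe with the suffix mm and a digit, which the sources used here do not explain. The suffixed probes were not uniformly dimmer than the probe they are named after. For TAF3B2 the suffixed probes averaged 39.6 against 20.5 for the plain probe, higher in all 8 replicates (19.2 points, SD 8.49). TAF3B2 passed an exact two-sided sign-flip permutation test over the 8 replicates (p = 0.0078, the smallest that 8 replicates allow, adjusted p = 0.031 over 4 sets). CE1 (3.20 points, adjusted p = 0.21) and MT003 (-1.71 points, adjusted p = 0.63) did not by the same exact test. All arrays had the same spot layout, so this test cannot separate a probe from its place on the slide.

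The brightest gene was HNF3B (FOXA2), a forkhead factor known for its role in endoderm and floor plate. It had a percentile of 98.8 at the lowest, 99.6 at the median and 99.8 at the highest of the 8 replicates, with a median background-subtracted signal of 23621 units. ID1, an inhibitor of bHLH factors, had 98.0, 99.5 and 99.8 in the same order and a signal of 22633 units. Their ranges overlapped, so their order was not resolved. Both were chosen by these percentiles, so their distance from the control probes is given without a test: 64.4 points above the median control probe for HNF3B and 64.25 points for ID1. FLJ11186 (mean 99.4) and BC000584 (mean 98.7), for which the array gives only clone names, stood among them.

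Other genes of the 20 brightest fell into several kinds. Transcription factors and their partners were TAL2, a bHLH factor named after T-cell acute lymphocytic leukaemia (mean 97.3 ± 1.43, SD, n = 8), HES7, the somite clock repressor (97.2 ± 1.79), POU4F1, a POU factor of sensory neurons (96.8 ± 2.13), ESR1, the oestrogen receptor alpha (96.7 ± 3.08), ZNF6 (96.0 ± 2.26), JUNB of the AP-1 family (95.8 ± 3.19), TAF2B (96.6 ± 1.11) and TCEB1, the elongin C subunit shared by elongin and ubiquitin ligases (98.5 ± 0.83). Genes that are not transcription factors were UBB, which encodes ubiquitin (97.1 ± 3.98), PRKCSH, a subunit of glucosidase II (97.8 ± 2.46), KCNN2, a small-conductance calcium-activated potassium channel known in hair cells (96.7 ± 3.07), and ATP7B, a copper transporter (96.5 ± 3.88). LOC51058 and MGC2508, which the study's supplement lists as zinc finger proteins, and KIAA1037 were also among the 20. All 20 were above every control probe in all 8 replicates. The 20th gene had a mean of 95.8 and the next, RING1 of the Polycomb group, had 95.01 ± 5.84, a gap smaller than the SD of either gene.

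The dimmest gene was GASC1, a histone demethylase, with 0.722 at the lowest, 3.55 at the median and 13.5 at the highest replicate and a median signal of 73.8 units above background. HOXC10, a posterior HOX gene, had 0.849, 4.12 and 14.6. POU4F2, the retinal and sensory neuron relative of POU4F1, had 2.62, 4.53 and 13.7. These values lay below the median control probe in all 8 replicates, which describes the choice of the dimmest genes and was not tested. Other dim genes were TBX1 (mean 7.22 ± 5.36), a T-box factor needed for the otic vesicle, HOXB5 (7.73 ± 6.06), WT1 of kidney and gonad (8.93 ± 7.57), MAFG (9.30 ± 8.74), NFATC1 (9.31 ± 12.5), ZNF214 (8.81 ± 4.56) and the deubiquitinase CEZANNE (9.69 ± 7.36), together with FLJ11191, HSU90653 and KIAA0395. The list also held SP1 (7.78 ± 8.74) and NSEP1 (YB-1, 9.24 ± 5.96), factors that most cells use. Of the 15, all but 1 were below the median control probe in each replicate, and NFATC1 was above it in 1. In 11 of the 15, both 30 min replicates were higher than the 6 other replicates. The share of all genes with this pattern was not counted, so it cannot be called a trait of the dim genes.

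**Figure D2:**
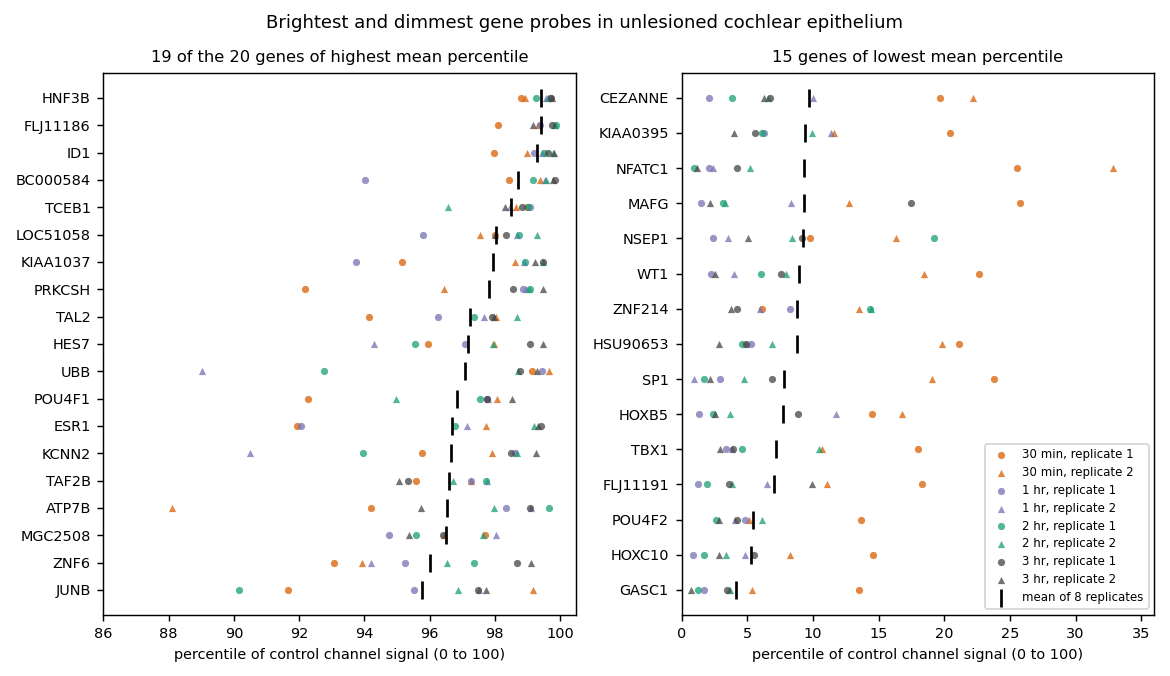
Percentiles of 19 of the 20 genes with the highest and of the 15 with the lowest mean in the control channel, 1 point per biological replicate and a bar for the mean. The axes of the 2 panels cover different ranges. HNF3B stays between 98.8 and 99.8, whereas NFATC1 spreads between 0.940 and 32.8 with both 30 min replicates at the high end.

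The level of a gene went with its place on the slide. The spots were printed in 4 blocks of 32 rows and 12 paired columns. Genes of the first column had a median percentile of 35.04, those of the second 33.4 and those of the last 60.1, and the lowest and highest replicate medians were 30.1 and 41.2 for the first column and 53.4 and 65.6 for the last. Row medians lay between 34.1 and 69.0. Block, row and column together accounted for 22.6% of the variance of the gene means, and a gene's mean correlated at 0.222 with that of the gene printed next to it. Of the 20 brightest genes, 18 were in columns 7 to 12, while each of the 12 columns held between 123 and 128 genes. The 27 control probes sat in 3 of the 32 rows and in 10 of the 12 columns. Rows 1, 29 and 31 held 8, 7 and 12 of them and had gene medians of 46.1, 49.1 and 39.9. Columns 11 and 12, with gene medians of 55.5 and 60.1, held none. Genes of one family were often printed together, so position and gene content cannot be told apart from these files.

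Removing an additive position effect within each replicate, an alternative chosen after seeing the data, left 697 genes above the median control probe, of which 649 were among the 876. It kept 5 of the 20 brightest and 7 of the 15 dimmest genes in their groups. On that scale, which can run past 0 and 100, ID1 had 94.1, POU4F1 94.5 and ESR1 103, whereas HNF3B had 82.7 and KCNN2 72.3. Among the dim genes GASC1 had 5.65, TBX1 5.78 and SP1 -6.39, while POU4F2 had 31.3 and NSEP1 27.7. The median of the control probes was 44.7 on that scale, beside 48.65 for all genes. Without the step these medians were 36.1 and 48.3, so the reference for the calls also depended on print position.

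**Figure D3:**
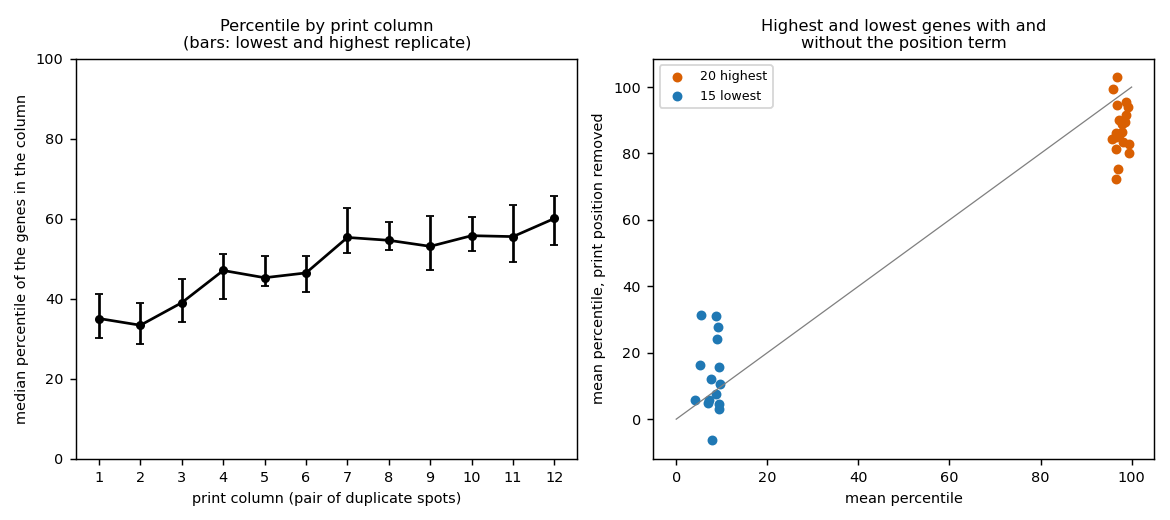
Left, the median percentile of the genes in each of the 12 print columns, with bars for the lowest and the highest of 8 replicates, from 35.04 in the first column to 60.1 in the last. Right, mean percentile of the 20 highest and 15 lowest genes (horizontal) against the same after removal of print position (vertical): HNF3B moves to 82.7 and POU4F2 to 31.3.

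The SD of a percentile is compressed near the ends of the scale, so it does not compare the steadiness of signals at different levels. Only genes called above the median control probe were compared by SD here. Among the 5 of them with the smallest SD over replicates were HNF3B (0.375 points), ID1 (0.595), FLJ11186 (0.601) and TCEB1 (0.828). All 5 were at the top of the scale. The signal of HNF3B itself had quartiles of 12918 and 40542 units over the 77 channels. The 5 genes called above with the largest SD were XBP1, a factor of the unfolded protein response (mean 82.6 ± 20.6), PAF65B (64.8 ± 20.5), TBX21, the T-bet factor of T cells (79.2 ± 19.97), MCM7, a replication helicase subunit (68.6 ± 19.8), and MYBL2, a cell-cycle MYB factor (72.8 ± 19.6). In all 5, 2 hr replicate 2 was the lowest of the 8 and 3 hr replicate 2 the next. These genes were chosen by their SD, and the share of all genes with this order was not counted. XBP1, for example, had 39.2 in 2 hr replicate 2 and 62.9 in 3 hr replicate 2, and 88.2 to 97.0 in the 6 others.

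Of 48 families with at least 4 genes on the array, covering 816 genes, 22 had a median above that of all genes. Family medians lay between 32.4 and 83.4, but the spread within a family was nearly that of the whole array: the pooled SD of gene means within families was 20.6 points, against 21.6 over all genes, and in 32 families the brightest and dimmest members were over 50 points apart. The counts below are to be read beside the 58.1% of all genes called above and the 16.1% called below the median control probe.

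The highest median belonged to the SSX genes, a family of near-identical human genes expressed in testis and tumours, with 83.4 and all 5 members above the median control probe. Probes to such close copies can share targets, and whether these human probes reach a chicken transcript was not tested. The HES, HEY and ID genes, targets and antagonists in Notch and BMP signalling, came next with a median of 75.3 over 10 genes. Of these, 7 were above and 1 below the median control probe, and 4 were above every control probe in all 8 replicates. ID1 (99.3 ± 0.60), HES7 (97.2 ± 1.79), HES2 (94.8 ± 4.30) and HEY2 (87.9 ± 4.91) were those 4, and HEYL had 80.7 ± 4.71. The opposite end of the same family was ID3 (16.03 ± 9.78), while HRY (HES1, 33.9 ± 12.5) and ID2 (37.4 ± 10.3) did not differ from the control probes. The PRDM genes, zinc finger factors with a methyltransferase-like domain, had a median of 68.1 with 11 of 15 above. Their highest member was PRDM13 (90.5 ± 5.55) and their lowest PRDM14 (24.4 ± 7.03).

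The GLI and ZIC factors, effectors of Hedgehog signalling and their relatives, had 8 of 9 members above, with a median of 63.5 between GLI (33.9 ± 16.5) and ZIC4 (74.4 ± 8.70). The SMAD genes, which carry TGF-beta and BMP signals, had 7 of 8 above, and MADH2 (SMAD2) was the highest at 87.4 ± 11.3. All 5 genes of the MEF2 and SRF group were above, led by MEF2B (91.4 ± 5.19). In the AP-1 and ATF group 9 of 15 were above and none below, with JUNB at 95.8 and the endoplasmic reticulum stress sensor ATF6 the lowest at 27.1 ± 13.4. Among the MYC, MAX and MAD genes, the MAX-binding repressor MNT stood at 92.2 ± 5.03 and MXI1 at 22.9 ± 7.63. In the forkhead family 21 of 27 were above, and HNF3B was separated from its closest relatives HNF3A (47.9 ± 11.4) and HNF3G (28.3 ± 12.4). With print position removed HNF3B had 82.7, HNF3A 59.35 and HNF3G 33.9, so HNF3B and HNF3A lay closer together. In the POU family, POU4F1 (96.8) and POU4F2 (5.44) took opposite ends of the scale.

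At the low end were the RUNX genes and their fusion partners (median 32.4, none of 4 above), the EGR factors (34.6), the CREB and CREM group (35.2) and the numbered zinc finger genes (36.6). The zinc finger group was the largest, with 166 genes: 63 were above (38.0%) and 59 below (35.5%) the median control probe, whereas of the 1341 other genes 60.6% were above and 13.7% below. Its highest member was ZNF6 (96.0) and its lowest ZNF214 (8.81). Only 23 of the 166 array names (13.9%) occurred as a symbol or synonym among chicken RefSeq genes, against 817 of all 1507 (54.2%). Many array names are older symbols, and whether the human probes reach a chicken transcript was not tested. Over the whole array the share of matched names did not follow the level closely: it was 46.4% in the dimmest of 10 equal classes of genes and 52.0% in the brightest. The general transcription machinery, 59 genes of initiation factors and TBP-associated factors, some of them tissue-restricted forms such as ALF, had a median of 39.3, with 22 above and 12 below. With print position removed, the medians were 70.5 for the HES, HEY and ID genes, 70.6 for the SSX genes, 63.8 for the PRDM genes, 38.8 for the zinc finger genes and 44.6 for the general machinery, beside 48.65 for all genes. The order of other families changed. The SMAD genes (45.9), the MEF2 and SRF group (47.8) and the MYC, MAX and MAD genes (47.9) then had medians below that of all genes. The RUNX (42.65), EGR (43.2) and CREB and CREM (46.25) groups were no longer lowest, and the SOX (35.8) and RFX (36.5) factors had the lowest medians of the 48 families.

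**Figure D4:**
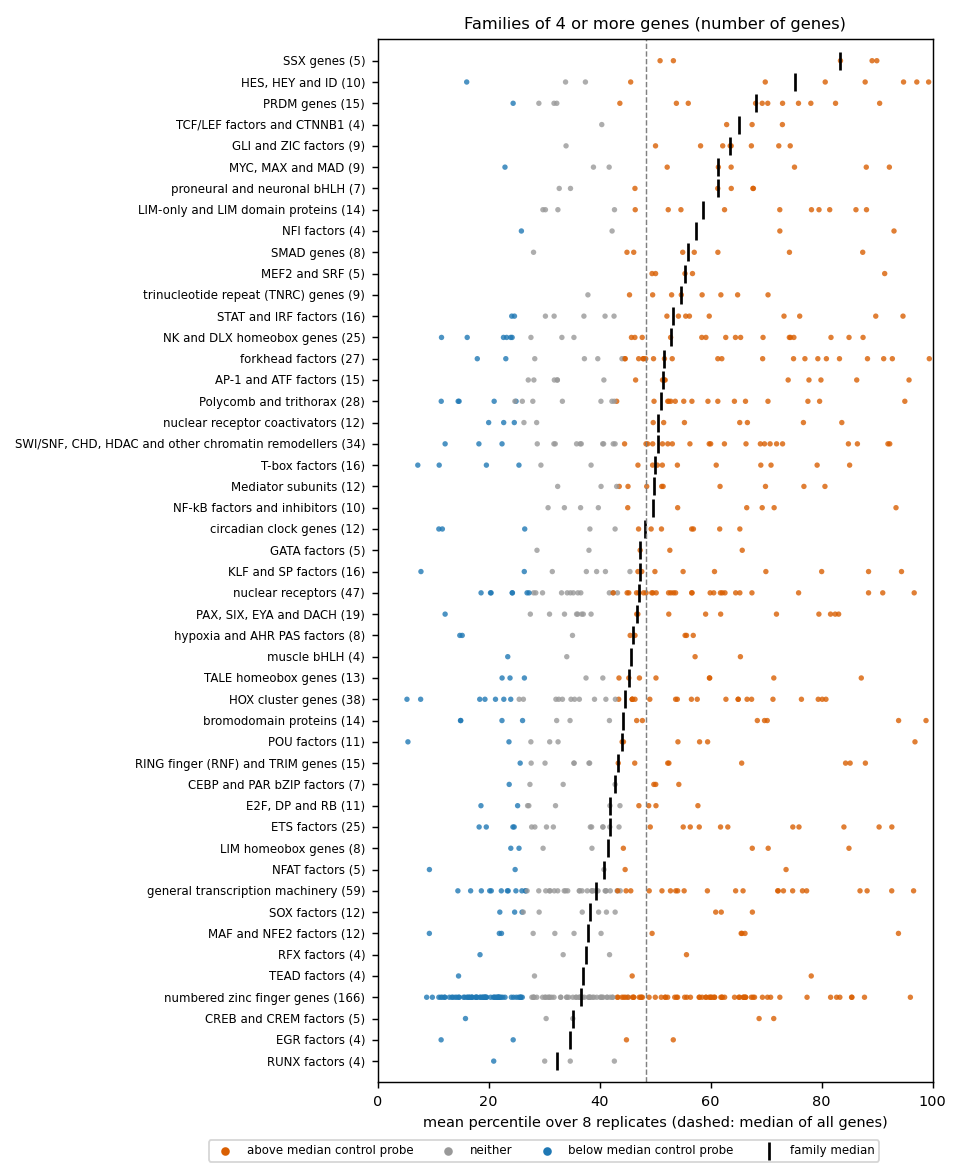
Each point is the mean percentile of 1 gene over 8 replicates, in 48 families sorted by their median (black bar), coloured by the call against the median control probe, with the median of all genes (48.3) dashed. Medians run between 32.4 and 83.4, and most families span more than 50 points.

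Lists of cell type genes were used to check the tissue. Of the hair cell genes, BARHL1 had a percentile of 59.2 at the lowest, 74.9 at the median and 86.7 at the highest replicate. ATOH1, the factor that starts hair cell differentiation, had 39.95, 66.7 and 77.0. POU4F3, needed for hair cell survival, had 26.7, 44.3 and 57.6. All 3 were above the median control probe (adjusted p = 1.0e-09, 2.9e-07 and 0.028 by limma), and none was above every control probe in all 8 replicates. These 3 were 60% of the 5 hair cell genes on the array, close to the 58.1% of all 1507 genes called above. GFI1 (30.9 ± 12.2) and RFX3 (33.4 ± 3.32) were not separated from the control probes.

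Of 18 supporting cell and prosensory genes, 8 were above and 2 below, with a median of 40.7. HEY2, HEYL and ID1 were high, and PROX1 had 59.7 ± 7.57 and CTNNB1, the Wnt effector beta-catenin, 62.9 ± 19.2. GATA3, an otic factor lost in a human deafness syndrome, had 52.7 ± 18.6, with 84.2 in 30 min replicate 2 and 20.6 in 2 hr replicate 2. SOX2 (42.8 ± 7.34, adjusted p = 0.053), PAX2 (36.04 ± 9.40), EYA1 (30.96 ± 11.99), SOX9 (26.2 ± 10.5) and SOX10 (29.1 ± 7.21), which define the otic lineage, did not pass the test against the median control probe.

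Lists for other tissues gave overlapping values. Medians were 61.3 for 9 neuronal genes of the acoustic ganglion, with POU4F1 at 96.8 and ARIX (PHOX2A) at 92.7 ± 2.23; 39.95 for 12 mesenchymal genes, with FOXC2 at 92.8 ± 3.14; 41.3 for 12 liver, gut and pancreas genes, with HNF3B at 99.4, IPF1 (PDX1) at 91.7 ± 4.72 and the nuclear receptor NR1I3 at 91.0 ± 4.67; and 39.5 for 13 blood and immune genes, with PAX5 highest at 79.5 ± 9.76. The muscle (34.1, 5 genes), endothelial (32, 6 genes) and eye, pituitary and gonad (31.5, 12 genes) lists had lower medians. Of the 9 neuronal genes 6 were above and 0 below the median control probe, with NEUROD4 lowest at 32.7. The mesenchymal list had 5 above and 4 below (lowest CART1, 17.9). Liver, gut and pancreas genes had 6 above and 2 below (lowest HNF4G, 20.3). Blood and immune genes had 5 above and 3 below (lowest ZNFN1A3, 21.5). SRY, a gene of mammals that birds lack, had 22.0 ± 8.92. Broadly expressed factors had a median of 48.7 over 19 genes. Of 23 housekeeping genes that are not transcription factors, 20 were above, with a median of 65.2 (UBB 97.1). For 17 genes restricted to tissues such as heart, cornea, liver or gut, 12 were above, with a median of 60.6 (MYH11 92.1). The last 2 lists were drawn up after the array's gene names were seen. With print position removed, the housekeeping and restricted lists had medians of 53.4 and 52.4. The same step changed the order of the cell type lists: the hair cell list then had the highest median of the 10, 65.04, followed by the neuronal list with 53.8 and the liver, gut and pancreas list with 53.1, and the supporting cell list had 45.15. The hair cell median is the value of POU4F3 on both scales, and the place of the list among the others therefore depended on the position term.

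**Figure D5:**
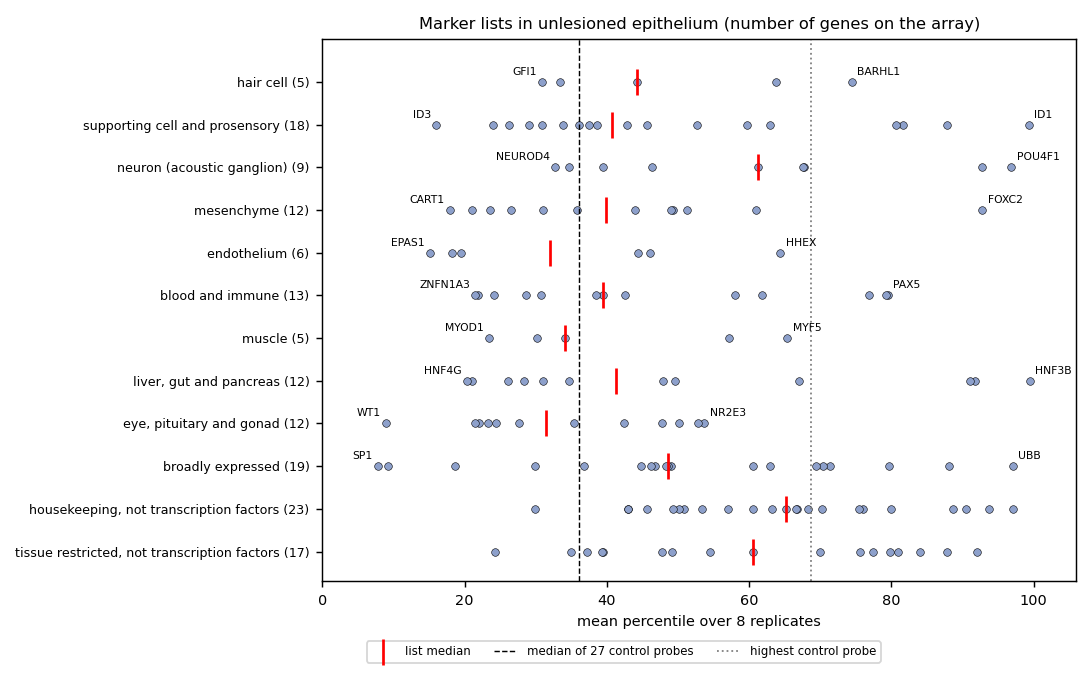
Mean percentile of each gene (points) in 10 cell type lists and 2 lists of genes that are not transcription factors, with list medians in red, the median control probe dashed and the highest control probe dotted. Hair cell and supporting cell medians (44.3 and 40.7) fall among those of the lists for other tissues on this scale, whereas with print position removed the hair cell median was 65.04, the highest of the 10 cell type lists.

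The same control RNA was read in both dyes on different slides. Within a replicate, r over genes between Cy5 and Cy3 means had a median of 0.875 (0.663 to 0.941), and averaged over replicates it was 0.967. With replicate as a block, 12 of 1507 genes (0.796%) differed between the dyes. Of these, 1 was higher in Cy5 (0.0664%) and 11 were higher in Cy3 (0.73%) of 1507 at an adjusted p under 0.05 in limma, and 276 had an unadjusted p under 0.05. The 5 genes with the smallest p were all higher in Cy3. CRX, a retinal factor, averaged 31.5 in Cy5 and 53.4 in Cy3 (-21.9 points, adjusted p = 0.029). IRF2 averaged 67.6 in Cy5 and 84.5 in Cy3 (-16.9 points, adjusted p = 0.029). NAB2, TSC22 and SMARCB1 differed by -19.0, -15.98 and -15.7 points (adjusted p = 0.043 each), and all 5 were lower in Cy5 in 8 of 8 replicates. The count changed with the replicates: leaving out one left between 0 and 13, with 0 left without either 1 hr replicate, either 3 hr replicate, 30 min replicate 1 or 2 hr replicate 2, 3 without 30 min replicate 2 and 13 without 2 hr replicate 1. The top 20 of each dye shared 17 genes, and the bottom 15 shared 7.

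The control cultures were collected at 4 times, which allowed a test of whether the unlesioned epithelium itself differed between times. None of 1507 genes (0%) differed over the 4 times by limma's F-test after adjustment, although 364 had an unadjusted p under 0.05. The smallest adjusted p was 0.12, which many genes shared. EP300, NFIL3, CROC4, CTNNB1 and GLI had the smallest unadjusted p. CTNNB1 had 72.9 and 84.7 at 30 min, 47.7 and 49.9 at 1 hr, 48.6 and 36.7 at 2 hr, and 85.7 and 77.0 at 3 hr. EP300, a histone acetyltransferase, had 63.9 and 69.7 at 30 min and 24.6 to 38.9 in the 6 other replicates. NFIL3, a bZIP repressor, had 76.9 and 70.2 at 30 min and 35.7 to 49.2 otherwise. GLI had 52.0 and 59.8 at 30 min, 17.5 and 21.04 at 1 hr, 26.5 and 15.6 at 2 hr, and 41.0 and 38.1 at 3 hr. For EP300, NFIL3 and GLI both 30 min values lay above the 6 others, whereas CTNNB1 overlapped between 30 min and 3 hr. The quantification headers give a date, and the step it records is not stated. The 30 min arrays carried 4 dates and the 3 hr arrays 2, none shared with another time. Time and header date cannot be told apart there. For 2 hr minus 1 hr, which shared 2 header dates, no gene was called (0%) with all arrays (112 at an unadjusted p under 0.05). Within the shared dates none was called either (52 at an unadjusted p under 0.05). Contrasting 3 hr with 30 min gave no call (0%, 381 unadjusted). The median SE of that contrast was 6.70 points. Leaving out either 2 hr replicate did not change the 3 hr minus 30 min differences. It left 1 sample at 2 hr, so the spread at 2 hr no longer entered the test, and both fits are the same for this contrast. Their calls are therefore not counted.

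The order of probe signals in the laser and control channels was nearly the same. Both channels were read from the same spots, so each probe's binding strength and print position were shared between them. How much of the likeness came from the RNA was not tested. The replicate averages correlated at r = 0.998 over genes, and the 2 channels of one slide at a median of 0.910 (0.435 to 0.973). All 20 of the brightest genes were also the laser channel's 20 brightest, and 14 of the 15 dimmest were among its 15 dimmest. HNF3B averaged 99.4 ± 0.26 in lasered and 99.4 ± 0.37 in control epithelium (SD, n = 8 each), and POU4F1 averaged 96.7 ± 2.37 and 96.8 ± 2.13. The difference of laser minus control had an SD of 1.55 points over genes with a median SE of 1.47 points, and no gene passed (0 of 1507, 0%, adjusted p of at least 0.98 for the 5 genes with the smallest p, 63 genes at an unadjusted p under 0.05). The largest of those 5 was DLX3, a homeobox factor, with 59.1 in lasered and 65.4 in control epithelium (-6.33 points), lower in 7 of 8 replicates. SPIB (65.3 and 61.8), ZNF211 (70.8 and 66.3), ONECUT2 (68.8 and 64.8) and NR2C1 (24.6 and 28.5) completed the 5. No gene's difference varied between the times after adjustment (0%, 111 unadjusted). With the laser channel in place of the control channel, 902 genes were above the median control probe.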

How the data were processed

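For each of 77 two-colour arrays, the authors scanned both channels with ImaGene and deposited spot intensity values without normalization. A deposited table of log2 ratios holds no level of the control channel alone and was not used here. For each control channel, signal mean minus background mean was averaged over the spots of a gene and converted to percentiles among 1507 genes, and the 27 control probes were placed by the share of genes below them. Percentiles were averaged within dye, over both dyes and within 8 biological replicates. Tests used limma 3.58.1 in R 4.3.3 (lmFit and eBayes, Benjamini-Hochberg adjustment over all genes, threshold 0.05), and the scripts were tested on simulated data. The GEO labels give the same dye order for every sample, so the control channel rests on the titles and image names.

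Named were the 20 highest and 15 lowest genes, the 5 with the largest and the 5 with the smallest SD among genes called above, the genes of the cell type lists, the highest and lowest member of each family of at least 4, and the 5 smallest p-values for time, dye and laser. Families were matched by name pattern. The genes, lists and families were chosen with earlier results of these data known. Alternatives changed the background correction, scale, weighting, dye and control probe taken as background, added the header date, and left out each replicate. Probe sequences were not used here, and results for a few named genes and probes are not reported here. The number of biological replicates, 8 in all and 2 at each time, limits the precision.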

Additional observations from a re-analysis of the deposited data

Results flagged for a closer look

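Among 219 named genes, 23 had 1 of the 8 replicates set far apart from the others (Dixon's test of the gap to the nearest replicate over the whole range). For normally distributed values, chance flags about 1 in 20 groups. Percentiles are compressed near the ends of the scale, and many of these genes were chosen by them, so that rate need not hold here. Of the 23, 10 were in 30 min replicate 1, 5 in 2 hr replicate 2, 3 in 3 hr replicate 2, 3 in 30 min replicate 2 and 2 in 1 hr replicate 1. In 30 min replicate 1 the percentile was below the other 7 for FLJ11186 at 98.1 (nearest other 99.16), ID1 at 97.99 (nearest other 99), PRKCSH at 92.19 (nearest other 96.44), NFIB at 85.55 (nearest other 92.69), MEF2B at 79.28 (nearest other 91.08) and LMO1 at 74.55 (nearest other 85.03). In 30 min replicate 1 the percentile was above the other 7 for GASC1 at 13.51 (nearest other 5.342), POU4F2 at 13.69 (nearest other 6.1), KIAA0395 at 20.41 (nearest other 11.61) and ID3 at 37.43 (nearest other 18.39). In 30 min replicate 2 the percentile was below the other 7 for ATP7B at 88.09 (nearest other 94.21). In 30 min replicate 2 the percentile was above the other 7 for PMX2B at 63.87 (nearest other 42.52) and HNF3G at 57.09 (nearest other 28.51). In 1 hr replicate 1 the percentile was below the other 7 for BC000584 at 94.03 (nearest other 98.45). In 1 hr replicate 1 the percentile was above the other 7 for NEUROG2 at 89.89 (nearest other 71.23). In 2 hr replicate 2 the percentile was below the other 7 for TCEB1 at 96.55 (nearest other 98.32), SOX10 at 13.59 (nearest other 25.96), FOXC2 at 85.99 (nearest other 91.71) and SIM2 at 24.64 (nearest other 54.25). In 2 hr replicate 2 the percentile was above the other 7 for RFX5 at 41.43 (nearest other 21.23). In 3 hr replicate 2 the percentile was above the other 7 for TAL1 at 71.14 (nearest other 50.85), ERG at 38.58 (nearest other 19.43) and NRL at 51.78 (nearest other 37.88).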

How the results depend on the processing

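The count of 876 genes above the median control probe was 379 against the 90th percentile of the control probes, 130 against the highest and 384 by a raw mean signal of at least 1000 in 80% of arrays at every time. It was 841 to 926 with one replicate left out, 810 without both 30 min replicates and 697 with print position removed, the last 2 added after seeing the data. The F-test over times gave 3 genes on a log2 quantile scale and 42 with header date as a random block over single arrays. It gave 0 in the other settings with all 8 replicates. For 3 hr minus 30 min these settings gave 12 and 3, and leaving out one replicate gave 0 to 64. The 64 came only from leaving out either 2 hr replicate, which took the spread at 2 hr out of the test. It is therefore not read as a set of calls, and leaving out any other replicate gave 0. The dye count of 12 was 40 on the log2 quantile scale and 28 with equal weight for single arrays. It was 126 with a header date term over single arrays, and 0 to 13 with one replicate left out. Fits over single arrays treat arrays of one replicate as independent.

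Laser minus control gave 277 genes on arrays with control RNA in Cy3 only and 121 with it in Cy5 only, where laser and dye cannot be told apart. There SPIB laser minus control was -5.77 points (Cy3) and DLX3 laser minus control was 9.17 points (Cy5), both reversed. In Cy3 only, CROC4 3 hr minus 30 min was 1.84 and CTNNB1 3 hr minus 30 min was -4.39 points, and the CTNNB1 difference ran between -3.40 and 8.38 with one replicate left out; the cause was not tested. With the replicate number as a block, the F-test over times gave 0 genes (344 at an unadjusted p under 0.05). The numbers did not pair the samples. Of 223 named genes, 97 moved by more than their SD with print position removed and 5 in each single dye.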
